A study of Mus musculus with 8 samples.

Results

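Complement genes were examined in bulk RNA from mouse liver. They are 31 genes, chosen by name from knowledge of the pathway but with earlier results of these data known. They comprise the components of the classical, lectin, alternative and terminal pathways with regulators and receptors. All 31 were found among the 35204 gene symbols of the deposited table, and all 31 passed the filter on low values (an average of 10 or more across 8 libraries; Cfd did so through the controls alone, and C7 and C5ar1 through the TAZ-CCl4 libraries alone) that left 14171 genes for testing. The 5 TAZ-CCl4 libraries came from livers of C57BL/6J mice, labelled wild type, that received TAZ S89A under the broadly active EF1a promoter by HTVI (in liver work, hydrodynamic tail vein injection, which brings plasmid DNA mainly into hepatocytes) and 30 doses of carbon tetrachloride (CCl4), 3 a week over 10 weeks. The 3 control libraries came from C57BL/6J livers, also labelled wild type, with no treatment. TAZ is a coactivator of transcription held in check by Hippo signalling, S89A removes a phosphorylation site used for that restraint, and CCl4 is a liver toxin. Wwtr1, the mouse gene of TAZ, averaged 5733 ± 1873 normalised counts in the TAZ-CCl4 libraries (SD, n = 5) and 367 ± 91.9 in the controls (SD, n = 3). Age and sex are not given in the labels used here, and plasmid, injection and CCl4 differ between the groups together, so their parts cannot be told apart. Library names also differ between the groups (YS and ICC CTRL). Whether the groups shared a batch is not stated, and a batch difference could not be told apart from the treatment. Nothing in the labels states that libraries come from separate mice. The p-values therefore reflect only library-to-library spread, some of which may be technical. In limma that spread is partly borrowed from other genes at a similar level.

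Complement is a cascade of plasma proteins that marks cells and microbes for uptake and can open pores in membranes. It starts from C1q bound to antibody or debris, from lectins bound to sugars, or from slow turnover of C3, and all 3 routes meet at the cleavage of C3. Most of the plasma proteins are made by hepatocytes, whereas C1q, properdin and ficolin A come largely from macrophages. On this textbook basis 20 of the genes were taken as hepatocyte-made, 7 as made or carried by macrophages, and 4 (C7, Cfd, Cd55 and Cd59a) as of other or mixed source. These groups were also set with earlier results of these data known, so the contrast between them is a description and not independent support. In bulk tissue, fewer cells of a type and less RNA per cell cannot be told apart.

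In the TAZ-CCl4 livers the genes of C1q and C3ar1, an anaphylatoxin receptor gene, rose 7.70-fold to 18.6-fold at the deposited scaling. C6, the C8 genes, Mbl1, Mbl2 and Masp2 fell 7.27-fold to 43.3-fold, and C3 did not pass the test. The sizes depend on the scaling: with totals made equal, log2 fold changes ran from 4.18 for C1qa to 5.38 for C3ar1 among the genes that rose, and from -1.78 for Mbl1 to -4.64 for C6 among those that fell. Of the 31 genes, 8 rose, 17 fell and 6 did not pass the test in the TAZ-CCl4 libraries (limma on log2(value + 1), Benjamini-Hochberg adjusted p under 0.05). Among all tested genes 32.4% rose and 29.8% fell, 62.3% in all, so a call by itself was common in this comparison. Of the 20 hepatocyte-made genes, 2 were called higher, 13 lower and 5 neither; their log2 fold changes had a median of -0.997. Of the 7 macrophage-made genes, 5 were called higher, 1 lower (Fcna) and 1 neither (Cfp); their median was 2.99, against 0.03 over all tested genes. The groups did not overlap for 8 of the 31 genes in the upward direction and 16 in the downward direction, against 30.7% and 29.4% of all tested genes, 60.1% in all. These directions hold at the deposited scaling. When libraries were set to equal totals the median over all tested genes was 1.26, 76.3% of genes were higher and 6.37% lower, 82.6% in all, and 18 complement genes were higher and 9 lower. At each of 5 scalings 7 genes were higher (C1qa, C1qb, C1qc, C2, Clu, C3ar1 and C5ar1) and 8 lower (Mbl1, Mbl2, Masp2, Cfd, C6, C8a, C8b and C8g), and the remaining 16 depended on the scaling. Cfd, C7 and C5ar1 passed the filter through 1 group alone and lend no support to these counts or to the counts and medians by source. Of the other 28 genes 6 were called higher, 16 lower and 6 neither. At each of the 5 scalings 6 of the 28 were higher and 7 lower. The share of all tested genes called alike at all 5 scalings was not computed. It cannot exceed 27.8% higher, the share after quantile normalisation, or 6.37% lower, the share at equal totals. The counts of members higher at all 5 scalings may therefore be no more than the background.

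**Figure D1:**
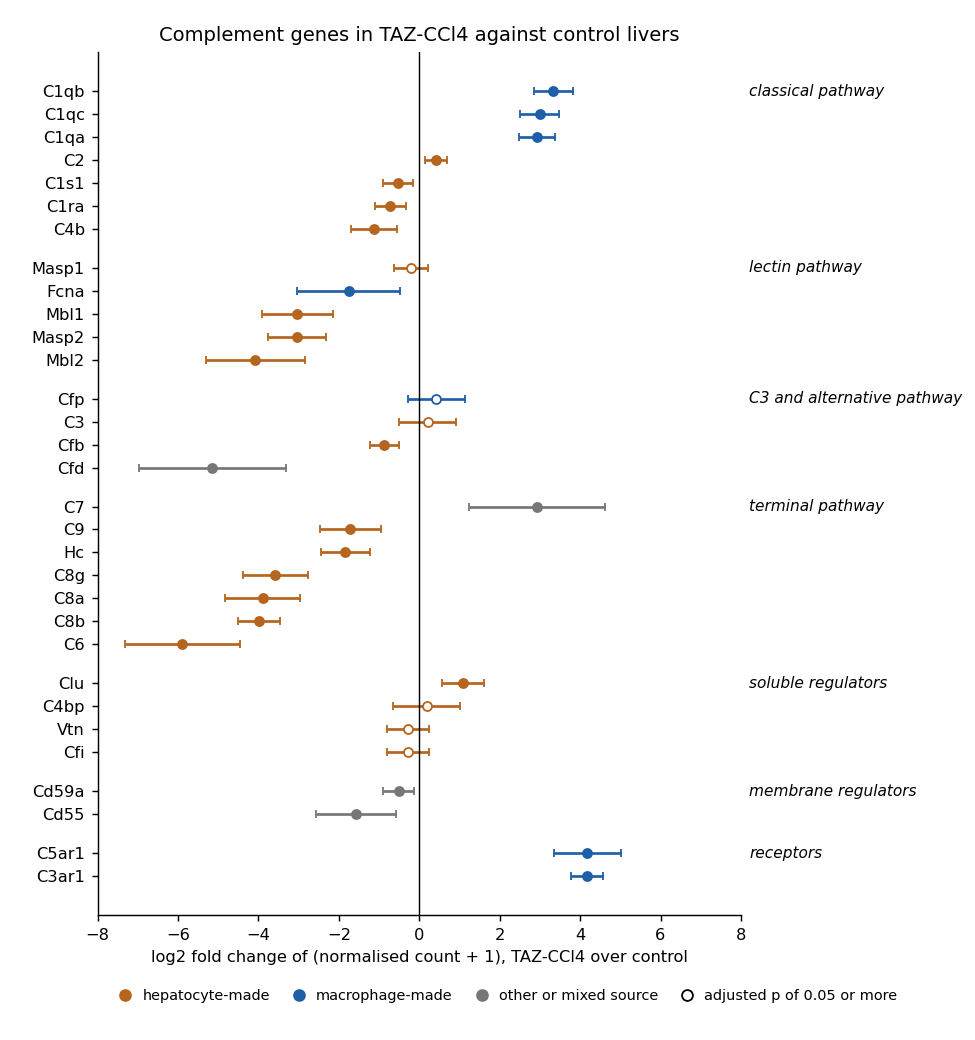
Log2 fold change of each complement gene, TAZ-CCl4 over control at the deposited scaling, with 95% intervals from limma, grouped by role and coloured by the main source of the protein. Genes of C1q and the receptors lie at 2.93 to 4.18 on the right and C6 and the C8 genes at -3.58 to -5.89 on the left, while C1ra, C1s1, C4b, Cfb and Cd59a, left of 0 here, lie right of 0 at equal totals.

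The genes of the classical pathway parted by source. C1qa, C1qb and C1qc encode the chains of C1q, the recognition molecule that binds antibody and dying cells. C1qa (chromosome 4, 136895917 to 136898803; coordinates here are mm10) stood at 3116, 2048, 3749, 2843 and 3474 normalised counts in TAZ-CCl4 replicates 1 to 5, against 343, 484 and 359.7 in the control libraries. C1qb (chromosome 4, 136880129 to 136886187) stood at 3779, 2246, 3906, 2768 and 3819 normalised counts in TAZ-CCl4 replicates 1 to 5, against 299, 415 and 265 in the control libraries. C1qc (chromosome 4, 136889804 to 136893065) stood at 3294, 2022, 3577, 2549.6 and 3389 normalised counts in TAZ-CCl4 replicates 1 to 5, against 334, 488 and 296 in the control libraries. Every TAZ-CCl4 library lay above every control for each chain, with replicate 2 the lowest of the TAZ-CCl4 libraries and replicate 3 the highest. The rises were 7.70-fold for C1qa, 10.1-fold for C1qb and 7.96-fold for C1qc, with log2 fold change 3.33 ± 0.22 (SE; limma, adjusted p = 1.38e-06) for C1qb, and log2 fold changes of 2.93 ± 0.20 and 2.99 ± 0.22 for C1qa and C1qc (limma, adjusted p = 1.72e-06 and 2.45e-06). Within each library the chains were set against their summed normalised counts: C1qb made up 35.4 ± 1.18% in the TAZ-CCl4 libraries and 29.8 ± 0.960% in the controls, and C1qc 31.8 ± 0.401% and 33.9 ± 1.53%.

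The C1q genes lie side by side on chromosome 4 and moved together, and their promoters are shown for that reason. RefSeq windows (GRCm38.p6) of 250 bases before to 50 after the start were at hand for C1qb and C1qc, and the capitals mark the core GAGGAA of PU.1, a transcription factor of myeloid cells, on either strand.
C1qb promoter, chr4:136886151-136886450, minus strand: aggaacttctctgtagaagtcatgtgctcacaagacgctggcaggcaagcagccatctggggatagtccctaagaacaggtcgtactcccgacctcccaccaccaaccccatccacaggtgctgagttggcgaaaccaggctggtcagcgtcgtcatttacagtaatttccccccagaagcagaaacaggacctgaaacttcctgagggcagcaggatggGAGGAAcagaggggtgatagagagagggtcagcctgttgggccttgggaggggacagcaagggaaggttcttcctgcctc
C1qc promoter, chr4:136892865-136893164, minus strand: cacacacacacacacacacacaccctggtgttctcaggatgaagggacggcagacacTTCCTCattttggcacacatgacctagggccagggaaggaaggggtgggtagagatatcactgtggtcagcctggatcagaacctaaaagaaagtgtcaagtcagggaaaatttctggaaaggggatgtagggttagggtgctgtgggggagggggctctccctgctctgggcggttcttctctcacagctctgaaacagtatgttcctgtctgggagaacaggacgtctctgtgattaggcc
Of the 6 windows of macrophage-made genes, 4 held this core, against 1 of 16 windows of hepatocyte-made genes and 28.3% of all 32851 windows. The holders were C1qb and C1qc, which rose, Fcna, which fell, and Cfp, which did not pass. The window of C3ar1, which rose, did not hold it. A match of 6 letters is a description of the sequence and does not show binding.

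Macrophage markers moved with the C1q genes. Csf1r, the growth factor receptor of macrophages, stood at 5603, 2429, 4918, 3152 and 4352 normalised counts in TAZ-CCl4 replicates 1 to 5, against 241, 371 and 212 in the control libraries. Of 6 general macrophage markers 5 rose and 1 fell, and their summed normalised counts were 12121 to 21408 in the TAZ-CCl4 libraries and 1139 to 1902 in the controls. All 6 markers of recruited macrophages and monocytes rose, with sums of 2261 to 3064 in the TAZ-CCl4 libraries and 94.1 to 137 in the controls, whereas of 6 resident Kupffer cell markers none rose, 1 fell (Timd4) and 5 did not pass, with sums of 156 to 2850.2 in the TAZ-CCl4 libraries and 1104 to 2160.2 in the controls. None of these markers was at 0 in all libraries of a group. Timd4, with means of 5.12 in the TAZ-CCl4 libraries and 43.7 in the controls, passed the filter through the controls alone. The log2 ratio of C1qb to Csf1r was -0.57, -0.11, -0.33, -0.19 and -0.19 in TAZ-CCl4 replicates 1 to 5, against 0.31, 0.16 and 0.32 in the controls, and each TAZ-CCl4 library lay below each control, by a mean of -0.54 (exact two-sided permutation test over 56 splits, p = 0.0357, the smallest it can give; adjusted p = 0.0536 over 12 ratios, which misses 0.05). The part of macrophage number in the rise of the C1q genes was not tested.

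The hepatocyte-made members of the classical pathway are C1ra, C1s1, C2 and C4b. C1ra and C1s1 encode the serine proteases carried by C1q, and lie next to each other on chromosome 6. C1ra averaged 5063 ± 1156 normalised counts in the TAZ-CCl4 libraries (SD, n = 5) and 8186 ± 330.3 in the controls (SD, n = 3), and C1s1 averaged 8303 ± 1366 normalised counts in the TAZ-CCl4 libraries (SD, n = 5) and 11876 ± 595 in the controls (SD, n = 3). Both fell at the deposited scaling, with log2 fold changes of -0.72 ± 0.18 and -0.53 ± 0.16 (limma, adjusted p = 0.00493 and 0.0163), while with totals made equal they were higher, at 0.53 and 0.72. C1s1 lost its call without control replicate 1 or without control replicate 3 (adjusted p = 0.0642 and 0.0541). C2 and C4b encode the substrates from which these proteases build the C3-cleaving enzyme. C2 stood at 3760.3, 4163, 4114, 3247 and 3524 normalised counts in TAZ-CCl4 replicates 1 to 5, against 3053, 2661 and 2739 in the control libraries. It rose 1.34-fold, log2 fold change 0.41 ± 0.13 (SE; limma, adjusted p = 0.0157), and lost the call without control replicate 2 or 3 (adjusted p = 0.0686 and 0.0616). C4b stood at 14439.7, 25993, 16510.1, 16089 and 12759 normalised counts in TAZ-CCl4 replicates 1 to 5, against 48267, 30411 and 32389.7 in the control libraries. Its highest TAZ-CCl4 library, replicate 2, lay below the lowest control, and it fell at the deposited scaling, log2 fold change -1.12 ± 0.26 (SE; limma, adjusted p = 0.00368), but not after quantile normalisation or at equal totals, where the values were 0.54 and 0.13. C4b has a near-identical neighbour, C4a, which is not analysed here, so reads of the pair may be mixed in this value.

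Of the 5 lectin pathway genes 4 fell and 1 did not pass. Mbl1 and Mbl2 encode the mannose-binding lectins of the mouse, made by hepatocytes. Mbl2 (chromosome 19, 30232942 to 30239687) stood at 387, 153, 1249, 256 and 732 normalised counts in TAZ-CCl4 replicates 1 to 5, against 7595, 7303 and 6698 in the control libraries. Mbl1 (chromosome 14, 41151458 to 41159601) stood at 285, 427, 1179, 742 and 927 normalised counts in TAZ-CCl4 replicates 1 to 5, against 6023, 4625 and 4880.4 in the control libraries. Both lay far below every control in each TAZ-CCl4 library, and replicates 3 and 5 held the most of each. The falls were 13.0-fold for Mbl2, log2 fold change -4.08 ± 0.56 (SE; limma, adjusted p = 1.20e-04), and 7.27-fold for Mbl1, log2 fold change -3.03 ± 0.40 (SE; limma, adjusted p = 9.64e-05). Masp2, whose product is the lectin-bound protease that cleaves C4 and C2 proteins, stood at 468, 1115, 1443, 645 and 1136 normalised counts in TAZ-CCl4 replicates 1 to 5, against 7783, 6455 and 7855 in the control libraries. It fell 7.66-fold, log2 fold change -3.05 ± 0.32 (SE; limma, adjusted p = 2.33e-05). With totals made equal, log2 fold changes were -2.83 for Mbl2, -1.78 for Mbl1 and -1.79 for Masp2. Masp1, the gene of the partner protease that activates it, averaged 2771 ± 642 normalised counts in the TAZ-CCl4 libraries (SD, n = 5) and 3154 ± 259 in the controls (SD, n = 3) and did not pass, log2 fold change -0.22 ± 0.19 (SE; limma, adjusted p = 0.342), 95% interval -0.64 to 0.21, and at equal totals it was higher, at 1.04. Fcna encodes ficolin A, a lectin of mouse macrophages and Kupffer cells. It stood at 109, 37.7, 231, 40.8 and 183 normalised counts in TAZ-CCl4 replicates 1 to 5, against 256, 432 and 294 in the control libraries. The groups did not overlap and it fell, log2 fold change -1.76 ± 0.58 (SE; limma, adjusted p = 0.0220), although the call was lost without control replicate 2 or 3 (adjusted p = 0.0857 and 0.0530) and at equal totals, where the log2 fold change was -0.52.

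**Figure D2:**
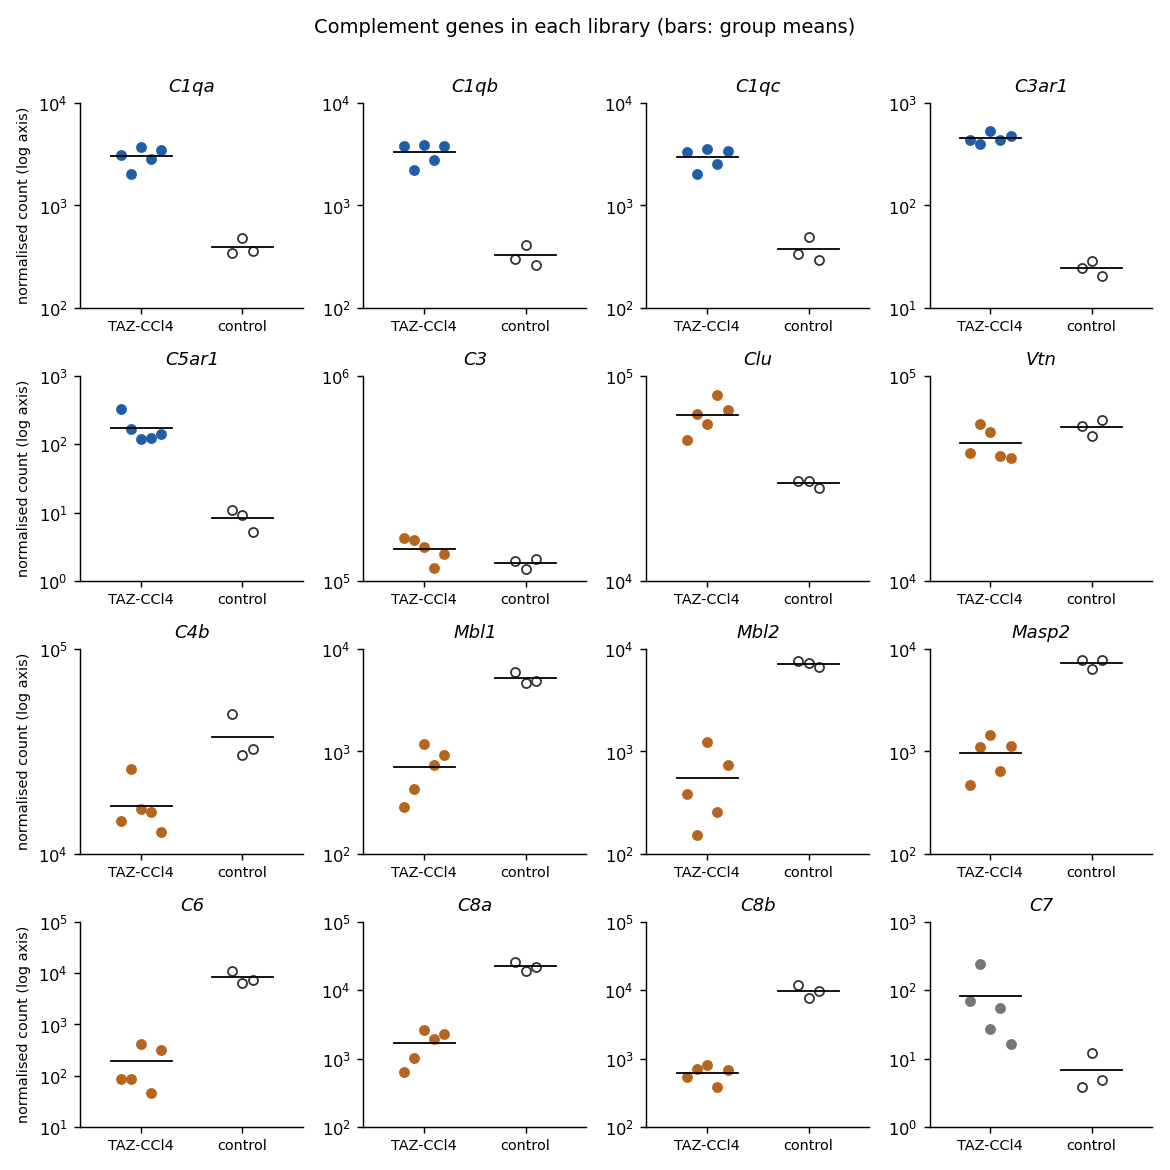
Normalised counts (log axes) of 16 complement genes in each library, 5 TAZ-CCl4 and 3 control, with bars at the group means and colours by source. TAZ-CCl4 libraries lie apart from the controls for every gene drawn except C3 and Vtn, and C6, Mbl2 and C7 spread most within the TAZ-CCl4 group.

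C3 is the central protein of the cascade. Its gene (chromosome 17, 57203970 to 57228136) stood at 161447, 158034, 145968, 115254 and 134611 normalised counts in TAZ-CCl4 replicates 1 to 5, against 124730, 114686 and 128476 in the control libraries. The groups overlapped and C3 did not pass, log2 fold change 0.21 ± 0.32 (SE; limma, adjusted p = 0.580), 95% interval -0.50 to 0.92; at equal totals and after quantile normalisation it was higher, at 1.47 and 2.34. Relative to albumin, another secreted product of hepatocytes, C3 was higher in each TAZ-CCl4 library: the log2 ratio of C3 to Alb was -1.80, -1.58, -2.43, -2.26 and -2.41 in TAZ-CCl4 replicates 1 to 5, against -3.22, -3.79 and -3.39 in the controls, a mean difference of 1.37 (exact two-sided permutation test, p = 0.0357; adjusted p = 0.0536). Alb itself was lower in each TAZ-CCl4 library, at 471110 to 785601 normalised counts against 1165320 to 1588050 in the controls. The groups did not overlap, yet at the deposited scaling its log2 fold change, -1.16 ± 0.73 (SE), did not pass (limma, adjusted p = 0.190). That SE also draws on other genes at a similar level, so it is not the spread of Alb alone. For C3 the SE was 0.32 with a prior variance that follows level and 0.15 without. As Alb was lower in each TAZ-CCl4 library, the C3 to Alb ratio includes the difference in Alb. Cfb encodes factor B, which joins C3 to form the enzyme of the alternative pathway. It stood at 14399, 14999.9, 17504, 15939.9 and 14349 normalised counts in TAZ-CCl4 replicates 1 to 5, against 30965, 26612 and 27026 in the control libraries. It fell 1.83-fold at the deposited scaling, log2 fold change -0.87 ± 0.16 (SE; limma, adjusted p = 8.82e-04), while with totals made equal it was higher, at 0.38. Cfb and C2 are paralogs, 86 bases apart on chromosome 17 and on the same strand, and they parted: the log2 ratio of Cfb to C2 was 1.94, 1.85, 2.09, 2.29 and 2.03 in TAZ-CCl4 replicates 1 to 5, against 3.34, 3.32 and 3.30 in the controls, a mean difference of -1.28 (exact two-sided permutation test, p = 0.0357; adjusted p = 0.0536).

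Cfd encodes factor D, the protease that cleaves factor B and is known as a product of fat cells. Cfd was listed at 0 in all 5 TAZ-CCl4 libraries and at 93.1, 56.998 and 7.07 normalised counts in the controls. It was called lower (limma, adjusted p = 3.43e-04), but it passed the filter through the controls alone and was not tested without control replicate 1, and its size depends on the added constant and is not given. Without the filter the adjusted p was 1.46e-04 (limma). Of 5 fat cell markers only Cidec and Fabp4 could be tested, of which Fabp4 rose and Cidec did not pass. The 5 summed to 375 to 590.4 in the TAZ-CCl4 libraries and 193 to 268 in the controls. Fabp4 made up most of these sums, at 345 to 556 and 126 to 176. Cidec averaged 34.9 in the TAZ-CCl4 libraries and 61.4 in the controls. Among the others, Adipoq was at 0, 4.83 and 0, Plin1 at 0, 6.19 and 1.15 and Cidea at 18.9, 1.21 and 4.80 normalised counts in control replicates 1 to 3. Their means were 0.21, 3.09 and 5.30 in the TAZ-CCl4 libraries, against 1.61, 2.45 and 8.30 in the controls. The sums therefore follow Fabp4 and not the markers as a set. The part of fat cells in the level of Cfd was not tested. Cfp encodes properdin, a stabiliser of the alternative enzyme made by leukocytes. It stood at 328, 192, 536, 264 and 463 normalised counts in TAZ-CCl4 replicates 1 to 5, against 205, 323 and 232 in the control libraries. The groups overlapped and it did not pass, log2 fold change 0.42 ± 0.32 (SE; limma, adjusted p = 0.272), 95% interval -0.29 to 1.13. Set against the macrophage receptor gene it was lower in each TAZ-CCl4 library: the log2 ratio of Cfp to Csf1r was -4.09, -3.66, -3.20, -3.57 and -3.23 in TAZ-CCl4 replicates 1 to 5, against -0.23, -0.20 and 0.12 in the controls, a mean difference of -3.45 (exact two-sided permutation test, p = 0.0357; adjusted p = 0.0536).

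The terminal pathway builds the membrane attack complex, and of its 7 genes 6 fell and 1 rose. C6 (chromosome 15, 4727175 to 4814967) stood at 86.8, 87.0, 420.3, 45.3 and 321 normalised counts in TAZ-CCl4 replicates 1 to 5, against 10869.6, 6592 and 7474 in the control libraries. Each TAZ-CCl4 library was far below each control, with replicates 3 and 5 above the other TAZ-CCl4 libraries. C6 fell 43.3-fold, log2 fold change -5.89 ± 0.64 (SE; limma, adjusted p = 2.71e-05). C8a, C8b and C8g encode the chains of C8, which inserts into the membrane. C8b (chromosome 4, 104766317 to 104804548) stood at 535, 709.6, 798, 389 and 681 normalised counts in TAZ-CCl4 replicates 1 to 5, against 11810.1, 7656 and 9686 in the control libraries. C8a (chromosome 4, 104815679 to 104876398) stood at 630.3, 1014, 2653, 1947 and 2259.9 normalised counts in TAZ-CCl4 replicates 1 to 5, against 26256, 19375 and 21679.7 in the control libraries. C8g, on chromosome 2, stood at 335, 836, 1486, 703 and 779 normalised counts in TAZ-CCl4 replicates 1 to 5, against 9499, 8293 and 8964 in the control libraries. All C8 genes fell without overlap, 15.6-fold for C8b, 13.2-fold for C8a and 10.8-fold for C8g, with log2 fold changes of -3.98 ± 0.23, -3.90 ± 0.42 and -3.58 ± 0.36 (limma, adjusted p = 8.31e-07, 2.43e-05 and 1.74e-05). With totals made equal, log2 fold changes were -4.64 for C6, -2.73 for C8b, -2.64 for C8a and -2.33 for C8g. The groups overlapped in the log2 ratio of C8g to C8a within a library, with values of -0.91, -0.28, -0.84, -1.47 and -1.53 in TAZ-CCl4 replicates 1 to 5, against -1.47, -1.22 and -1.27 in the controls (exact two-sided permutation test, p = 0.357; adjusted p = 0.39, which does not show that they are alike).

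C8a and C8b are neighbours on chromosome 4 that fell together, and their RefSeq promoter windows (GRCm38.p6, same layout) are shown with the HNF1 core GTTAAT, on either strand, in capitals. HNF1 is a transcription factor of liver and other epithelia.
C8a promoter, chr4:104876349-104876648, minus strand: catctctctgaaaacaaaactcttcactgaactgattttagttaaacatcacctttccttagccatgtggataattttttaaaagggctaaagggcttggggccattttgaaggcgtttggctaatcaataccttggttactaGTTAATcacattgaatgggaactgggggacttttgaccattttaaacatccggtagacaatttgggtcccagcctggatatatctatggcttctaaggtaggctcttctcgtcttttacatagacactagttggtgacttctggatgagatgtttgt
C8b promoter, chr4:104766067-104766366, plus strand: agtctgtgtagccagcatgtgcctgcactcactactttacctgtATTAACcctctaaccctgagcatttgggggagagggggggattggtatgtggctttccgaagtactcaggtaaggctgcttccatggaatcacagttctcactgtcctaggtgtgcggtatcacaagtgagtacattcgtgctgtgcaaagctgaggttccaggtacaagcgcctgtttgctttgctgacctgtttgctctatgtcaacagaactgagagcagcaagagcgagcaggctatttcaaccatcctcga
The HNF1 core was present in 6 of 16 windows of hepatocyte-made genes (C1ra, C4bp, C8a, C8b, Hc and Vtn), in 1 of 6 windows of macrophage-made genes and in 7.10% of all windows. Its holders include C8a, C8b and Hc, which fell, and C4bp and Vtn, which did not pass. The core TTGCNNAA of C/EBP factors was in 4 of the 16 hepatocyte-made windows and 10.8% of all, and the core GGAATG of TEAD factors, the DNA partners of TAZ, was in 5 of 16 and 14.7% of all. The STAT motif TTCNNNGAA, the AP-1 motif TGANTCA and the NF-kB motif were in 5, 2 and 1 of the 26 windows of the 24 members with a RefSeq window, against 8.30%, 7.81% and 1.63% of all. Both strands were searched, and motifs could overlap.

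Hc, the mouse gene of C5, and C9, which forms the wall of the pore, also fell. Hc stood at 3616, 8732, 7401, 6692 and 6985 normalised counts in TAZ-CCl4 replicates 1 to 5, against 30547, 19633 and 20057 in the control libraries. It fell 3.50-fold, log2 fold change -1.83 ± 0.28 (SE; limma, adjusted p = 2.43e-04), and lost the call after quantile normalisation, at -0.50. C9 stood at 2676, 5552, 8801, 5744 and 6107 normalised counts in TAZ-CCl4 replicates 1 to 5, against 25837, 13839 and 15544 in the control libraries. It fell 3.19-fold, log2 fold change -1.71 ± 0.34 (SE; limma, adjusted p = 0.00153), and lost the call at equal totals and after quantile normalisation, at -0.46 and -0.51. Against C3 within a library C9 was lower in each TAZ-CCl4 library, with a mean log2 difference of -1.93 (exact two-sided permutation test, p = 0.0357; adjusted p = 0.0536). C7, which is made mainly outside hepatocytes, went the other way. C7 stood at 68.8, 245, 27.5, 55.5 and 16.4 normalised counts in TAZ-CCl4 replicates 1 to 5, against 3.77, 12.1 and 4.80 in the control libraries. Every TAZ-CCl4 library lay above every control, but TAZ-CCl4 replicate 2 alone held most of the group's signal: the group means were 82.7 and 6.88, and 42.0 in the TAZ-CCl4 group without that library. C7 was called higher, log2 fold change 2.94 ± 0.76 (SE; limma, adjusted p = 0.00668), although it passed the filter through the TAZ-CCl4 libraries alone (adjusted p = 0.00931 by limma without the filter), and lost the call after quantile normalisation, at 1.82. Without control replicate 2 the control mean was 4.28. The 6 mesenchymal markers, of which 4 rose and 2 did not pass, summed to 2959.9 to 5158 in the TAZ-CCl4 libraries and 490.4 to 722 in the controls, and their part in the rise of C7 was not tested.

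Of the 4 soluble regulators 1 rose and 3 did not pass. Clu encodes clusterin, a chaperone-like plasma protein that binds terminal complexes. Clu (chromosome 14, 65968483 to 65981547) stood at 48919, 65602, 58504, 80605 and 68407 normalised counts in TAZ-CCl4 replicates 1 to 5, against 30856, 30621 and 28485 in the control libraries. The groups did not overlap and Clu rose 2.15-fold, log2 fold change 1.08 ± 0.24 (SE; limma, adjusted p = 0.00243), by 2.34 at equal totals. Against albumin within a library it was higher by 2.24 on the log2 scale, with log2 ratios of -3.53, -2.84, -3.75, -2.78 and -3.38 in TAZ-CCl4 replicates 1 to 5, against -5.24, -5.70 and -5.56 in the controls (exact two-sided permutation test, p = 0.0357; adjusted p = 0.0536). This ratio, too, includes the lower Alb values of the TAZ-CCl4 libraries. Vtn, the gene of vitronectin, which also keeps terminal complexes off membranes, stood at 42335, 58489.8, 53228, 40784 and 39658 normalised counts in TAZ-CCl4 replicates 1 to 5, against 57241, 51003 and 61321 in the control libraries. Cfi encodes factor I, the protease that destroys active C3 and C4 fragments, and C4bp encodes its cofactor. Cfi averaged 10229 ± 2777 normalised counts in the TAZ-CCl4 libraries (SD, n = 5) and 12144 ± 1263 in the controls (SD, n = 3), and C4bp averaged 12737 ± 5362 normalised counts in the TAZ-CCl4 libraries (SD, n = 5) and 10267 ± 1484 in the controls (SD, n = 3). Vtn, Cfi and C4bp did not pass at the deposited scaling, with log2 fold changes of -0.28 ± 0.24, -0.29 ± 0.23 and 0.18 ± 0.38 (limma, adjusted p = 0.320, 0.305 and 0.687; 95% intervals -0.81 to 0.24, -0.81 to 0.23 and -0.65 to 1.02), and were higher at equal totals, at 0.97, 0.96 and 1.44. C4bp was called as higher without TAZ-CCl4 replicate 4, its lowest library at 4778 (log2 fold change 0.50; adjusted p = 0.0493), and stood at -0.0091 without replicate 3.

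The membrane regulators protect host cells. Cd55 encodes decay-accelerating factor, which takes apart the C3-cleaving enzymes, and stood at 55.9, 22.8, 81.5, 47.7 and 113 normalised counts in TAZ-CCl4 replicates 1 to 5, against 130.1, 229 and 164 in the control libraries. It fell 2.72-fold, log2 fold change -1.57 ± 0.45 (SE; limma, adjusted p = 0.0110), but not without control replicate 2 (adjusted p = 0.0543) or at equal totals, at -0.34. Cd59a encodes a blocker of C9 insertion and stood at 839, 703, 1103, 668 and 861 normalised counts in TAZ-CCl4 replicates 1 to 5, against 1093, 1369 and 1080.4 in the control libraries. The groups overlapped at their edges, and Cd59a fell 1.41-fold, log2 fold change -0.51 ± 0.17 (SE; limma, adjusted p = 0.0255), with the call lost without control replicate 2 (adjusted p = 0.117) and the direction turned at equal totals, at 0.74.

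Both receptor genes rose. C3ar1 and C5ar1 encode the receptors of myeloid cells for the peptides cut from C3 and C5 proteins. C3ar1 (chromosome 6, 122847138 to 122856161) stood at 436, 399, 531, 436 and 479 normalised counts in TAZ-CCl4 replicates 1 to 5, against 24.5, 28.9 and 20.4 in the control libraries. C5ar1 (chromosome 7, 16246743 to 16259540) stood at 327, 167, 121, 124 and 143 normalised counts in TAZ-CCl4 replicates 1 to 5, against 10.8, 9.21 and 5.20 in the control libraries. Neither gene overlapped between groups, and TAZ-CCl4 replicate 1 was the highest for C5ar1. C3ar1 rose 18.6-fold, log2 fold change 4.17 ± 0.18 (SE; limma, adjusted p = 1.65e-07), and C5ar1 21.0-fold, log2 fold change 4.18 ± 0.37 (SE; limma, adjusted p = 7.17e-06). C5ar1 passed the filter through the TAZ-CCl4 libraries alone; without the filter its adjusted p was 8.62e-06 (limma). Set against Csf1r within a library, the groups overlapped for both: log2 ratios of C3ar1 to Csf1r were -3.68, -2.60, -3.21, -2.85 and -3.18 in TAZ-CCl4 replicates 1 to 5, against -3.25, -3.63 and -3.32 in the controls, and the mean differences were 0.30 for C3ar1 and 0.31 for C5ar1 (exact two-sided permutation test, p = 0.25 and 0.464; adjusted p = 0.3 and 0.464); with a pseudocount of 10 both differences were below 0. Neutrophils also carry C5ar1. Of 6 neutrophil markers 5 rose, with sums of 393 to 721 in the TAZ-CCl4 libraries and 61.8 to 69.9 in the controls. Ly6g was too low to be tested, at 0 in all controls and 0, 0.77, 0, 4.66 and 0.81 normalised counts in TAZ-CCl4 replicates 1 to 5. S100a8 and Retnlg, with control means of 8.86 and 1.84, passed the filter through the TAZ-CCl4 libraries alone and lend the count no support. The part of neutrophils in the rise of C5ar1 was not tested.

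At the deposited scaling Csf1r, C1qb, C3ar1 and C5ar1 were high in every TAZ-CCl4 library, while Fcna was below each control in all 5. Cfp was within the range of the controls in TAZ-CCl4 replicate 4, below it in replicate 2 and above it in replicates 1, 3 and 5. With totals made equal Fcna was not called, at -0.52 (limma, adjusted p = 0.400). The log2 ratio of Fcna to Csf1r was -5.67, -5.97, -4.41, -6.24 and -4.57 in TAZ-CCl4 replicates 1 to 5, against 0.08, 0.22 and 0.47 in the controls, a mean difference of -5.63 (exact two-sided permutation test, p = 0.0357; adjusted p = 0.0536). A pair of resident Kupffer cell genes varied with Fcna from library to library. Clec4f, a lectin gene of Kupffer cells, stood at 194, 33.8, 887, 29.0 and 576 normalised counts in TAZ-CCl4 replicates 1 to 5, against 751, 1049 and 678 in the control libraries, and Cd5l at 407, 54.8, 1261, 102 and 962 normalised counts in TAZ-CCl4 replicates 1 to 5, against 438, 658 and 229 in the control libraries. TAZ-CCl4 replicates 3 and 5 were the highest of their group for Fcna, Cfp, Clec4f and Cd5l, and replicates 2 and 4 the lowest for each of these genes. The same held for C1qa, C1qb and C1qc and for the general macrophage markers Adgre1 and Mpeg1, so it was not particular to Fcna, Cfp or Kupffer cell genes. Csf1r was highest in replicate 1, and the Kupffer cell marker Timd4 was lowest there, at 0. This library order is a description of 5 libraries, with no test.

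**Figure D3:**
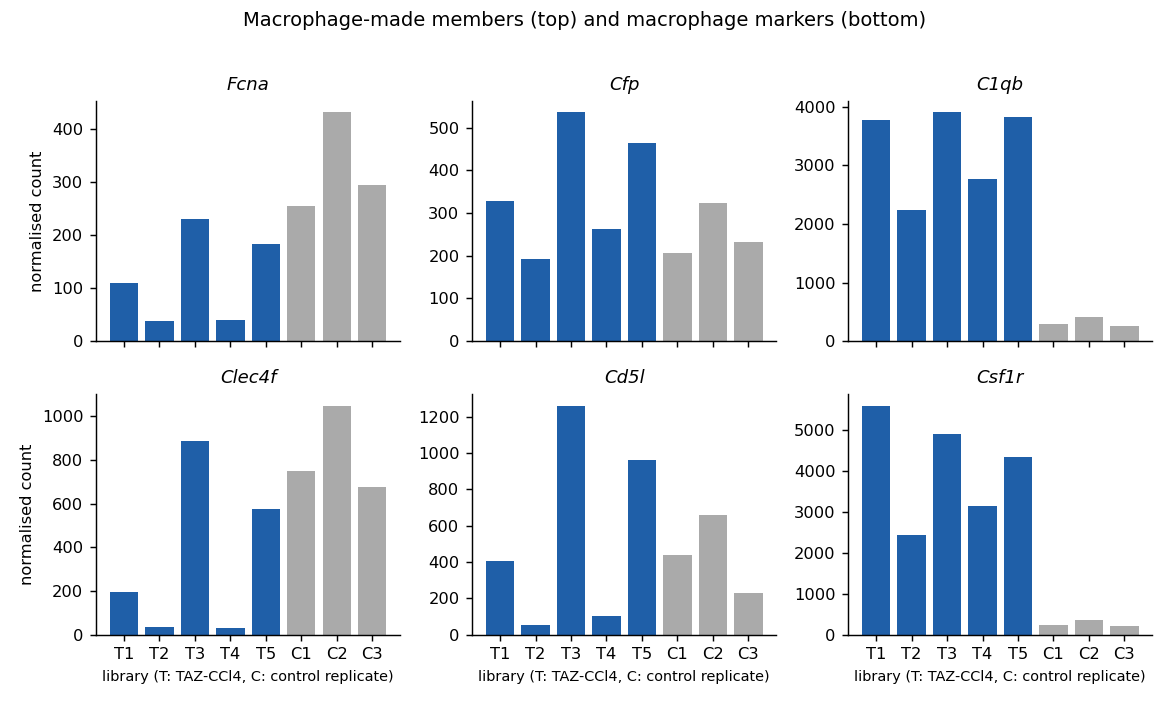
Normalised counts of the macrophage-made members Fcna, Cfp and C1qb (top) and of the macrophage markers Clec4f, Cd5l and Csf1r (bottom) in TAZ-CCl4 replicates 1 to 5 (T1 to T5) and control replicates 1 to 3 (C1 to C3). Fcna, Cfp, C1qb, Clec4f and Cd5l are highest in T3 and T5 and lowest in T2 and T4 among the TAZ-CCl4 libraries. C1qb and Csf1r exceed the controls in all 5.

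Among the 5 TAZ-CCl4 libraries, replicate 3 held the highest value of 13 of the 20 hepatocyte-made genes and of 6 of the 7 macrophage-made genes, replicate 1 the lowest of 9 hepatocyte-made genes, and replicate 2 the lowest of 6 macrophage-made genes. The median SD of log2 values over hepatocyte-made genes was 0.42 in the TAZ-CCl4 libraries and 0.14 in the controls, against 0.32 and 0.19 over all tested genes. The highest TAZ-CCl4 library exceeded the lowest by 9.27-fold for C6, 8.15-fold for Mbl2 and 15.0-fold for C7, but by 1.22-fold for Cfb, 1.28-fold for C2 and 1.40-fold for C3. Of 8 hepatocyte markers 6 fell, while Alb (groups not overlapping) and Fga (groups overlapping) did not pass. Their sums were 721248 to 1068320 in the TAZ-CCl4 libraries and 1996050 to 2454250 in the controls, and all 8 were detected in every library. Their part in the falls was not tested.

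Levels per kilobase of the longest coding transcript allow the genes to be set in order within a group. In the TAZ-CCl4 libraries Clu led with 35584 ± 6505 normalised counts per kb, ahead of C3 with 27855 ± 3663 and Vtn with 26892 ± 4841 (SD, n = 5), and the libraries' ranges of neighbours in this order overlapped. In the controls the order was Vtn with 32409 ± 2979.6, C3 with 23877 ± 1388 and Clu with 16568 ± 722 normalised counts per kb (SD, n = 3). As a share of the per-kb sum over all 31 genes, which a linear scaling of libraries does not move, Clu held 27.3 ± 5.54% in the TAZ-CCl4 libraries and 10.6 ± 0.920% in the controls, C3 21.3 ± 3.15% in the TAZ-CCl4 libraries and 15.3 ± 1.05% in the controls, and Vtn 20.4 ± 2.52% in the TAZ-CCl4 libraries and 20.7 ± 1.91% in the controls. Macrophage-made genes together held 6.84 ± 1.58% in the TAZ-CCl4 libraries (SD, n = 5), against 0.902 ± 0.281% in the controls (SD, n = 3). The C1q genes alone held 6.47 ± 1.48% in the TAZ-CCl4 libraries (SD, n = 5), against 0.641 ± 0.194% in the controls (SD, n = 3). The terminal pathway genes held 4.23 ± 1.24% in the TAZ-CCl4 libraries (SD, n = 5), against 21.9 ± 2.77% in the controls (SD, n = 3). The lectin pathway genes held 1.43 ± 0.424% in the TAZ-CCl4 libraries (SD, n = 5), against 8.42 ± 0.324% in the controls (SD, n = 3). These shares are descriptions and rest on annotated lengths.

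Within-library ratios do not rest on the scaling between libraries. C1qb set against C3 gave log2 ratios of -5.42, -6.14, -5.22, -5.38 and -5.14 in TAZ-CCl4 replicates 1 to 5, against -8.70, -8.11 and -8.92 in the controls, so that C1qb was higher by 3.12 on the log2 scale relative to C3, an 8.67-fold shift (exact two-sided permutation test, p = 0.0357; adjusted p = 0.0536). Of the 12 ratios examined, 8 had no overlap between groups and the smallest p that 56 splits can give, 0.0357, and 0 passed after adjustment over the 12, since the smallest adjusted value was 0.0536. Mbl2 to Mbl1 was among those that overlapped, with log2 ratios of 0.44, -1.47, 0.08, -1.53 and -0.34 in TAZ-CCl4 replicates 1 to 5, against 0.33, 0.66 and 0.46 in the controls (exact two-sided permutation test, p = 0.0714; adjusted p = 0.0952).

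**Figure D4:**
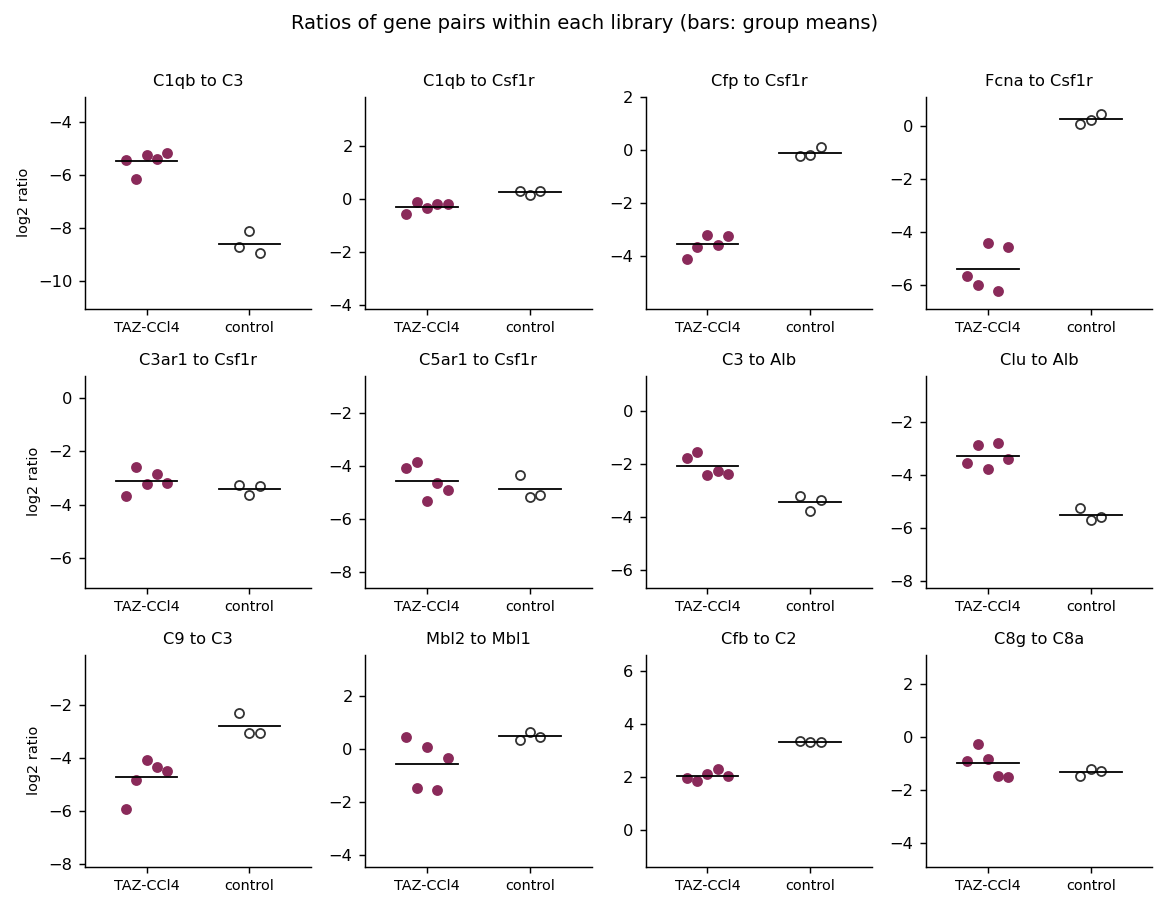
Log2 ratios of 12 gene pairs within each library, 5 TAZ-CCl4 and 3 control, with bars at the group means and axes of equal length. The ratios of Fcna and Cfp to Csf1r lie lowest relative to the controls, at differences of -5.63 and -3.45, while those of C3ar1 and C5ar1 to Csf1r overlap.

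The direction of the smaller changes depended on the scaling between libraries. Normalised counts summed to 12373200 to 14150100 in the TAZ-CCl4 libraries and to 29820000 to 35055300 in the controls, in which major urinary protein (Mup) and mitochondrial genes took 24.2% to 36.9% of the signal, against 3.67% to 6.97% in the TAZ-CCl4 libraries. Of the 20 hepatocyte-made genes 10 were higher and 8 lower at equal totals, 7 and 9 where Mup and mitochondrial genes were left out of those totals, 2 and 12 at equal upper quartiles, and 8 and 7 after quantile normalisation. Over all tested genes 62.9% were higher and 10.7% lower without Mup and mitochondrial genes in the totals, 38.6% and 23.4% at equal upper quartiles, and 27.8% and 29.8% after quantile normalisation, so the last count of 8 and 7 of 20 lies near the background. At all 5 scalings 2 of them were higher (C2 and Clu) and 7 lower (Mbl1, Mbl2, Masp2, C6, C8a, C8b and C8g). Of the macrophage-made genes 5 were higher at all 5 scalings (C1qa, C1qb, C1qc, C3ar1 and C5ar1) and none was lower at all 5. C5ar1 passed the filter through the TAZ-CCl4 libraries alone and lends this count no support. For these counts, too, the share of all tested genes called alike at all 5 scalings was not computed.

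**Figure D5:**
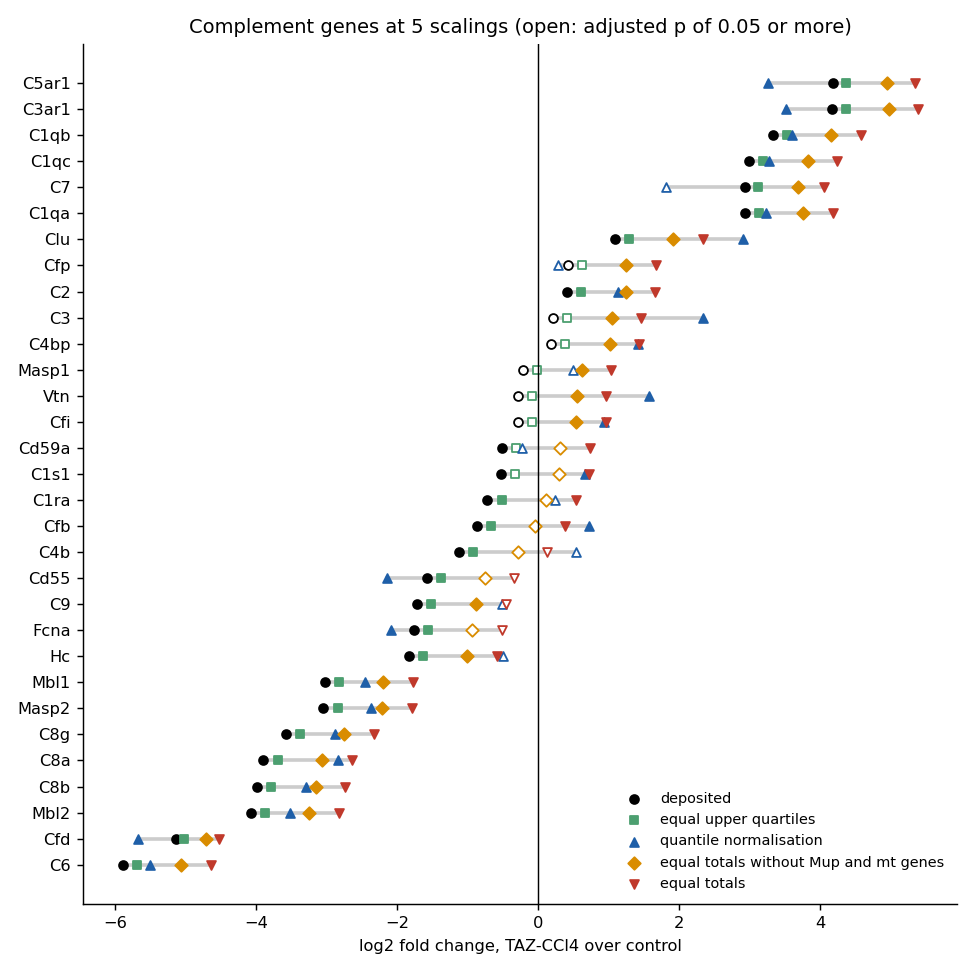
Log2 fold change of the 31 complement genes, TAZ-CCl4 over control, at the deposited scaling and 4 others, with open symbols where the adjusted p was 0.05 or more. Genes from C5ar1 to C4bp stay right of 0 and those from Cd55 to C6 left of 0, while Masp1, Vtn, Cfi, Cd59a, C1s1, C1ra, Cfb and C4b cross 0 between scalings.

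Of 28 further complement genes listed, 27 had deposited values and 21 passed the filter on low values. At the deposited scaling 5 were called higher, 11 lower and 5 neither, against 32.4% higher and 29.8% lower over all tested genes. With totals made equal, 11 were higher and 3 lower, against 76.3% and 6.37% over all tested genes. The largest rises were those of Itgam and Itgax, which encode the alpha chains of complement receptors that bind fragments of C3, and of Cd93, a surface receptor gene of endothelial and myeloid cells. Itgam and Itgax are also among the markers of recruited macrophages and monocytes given above, so their rise is not a separate observation. Itgam stood at 931, 517, 558, 559.5 and 623 normalised counts in TAZ-CCl4 replicates 1 to 5, against 24.4, 20.4 and 20.2 in the control libraries, log2 fold change 4.79 ± 0.21 (SE; limma, adjusted p = 1.97e-07). Itgax averaged 314 ± 121 normalised counts in the TAZ-CCl4 libraries (SD, n = 5) and 22.0 ± 13.5 in the controls (SD, n = 3), and Cd93 averaged 777 ± 215 normalised counts in the TAZ-CCl4 libraries (SD, n = 5) and 58.5 ± 15.4 in the controls (SD, n = 3), with log2 fold changes of 3.88 ± 0.49 and 3.69 ± 0.26. The largest falls were those of Susd4, Colec10 and C1rl. Susd4 encodes a membrane protein with complement control repeats and stood at 16.6, 8.97, 13.3, 15.1 and 5.26 normalised counts in TAZ-CCl4 replicates 1 to 5, against 1010.0, 832 and 595 in the control libraries, log2 fold change -6.04 ± 0.37 (SE; limma, adjusted p = 1.00e-06). Colec10, a collectin gene of the lectin pathway, averaged 30.7 ± 30.2 normalised counts in the TAZ-CCl4 libraries (SD, n = 5) and 229 ± 99.1 in the controls (SD, n = 3) (19.0 without TAZ-CCl4 replicate 3), and C1rl, a homolog of C1r, averaged 573 ± 145 normalised counts in the TAZ-CCl4 libraries (SD, n = 5) and 3478 ± 199.7 in the controls (SD, n = 3), with log2 fold changes of -3.33 ± 0.75 and -2.64 ± 0.20.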

How the data were processed

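RNA was sequenced from 8 mouse liver libraries, 5 TAZ-CCl4 and 3 control. The authors deposited normalised counts per gene, a signal that is not whole: estimated counts from kallisto divided by DESeq2 scaling factors, per the name of the deposited table, with DESeq2 and mm10 also given per the submitters' processing notes. For versions, transcript annotation and filters, the sources used here give nothing. Between 47.3% and 66.8% of values below 10 were whole multiples of a library's smallest step (tolerance 0.03), so reads could not be recovered, no count test was run and the depth behind each value is unknown.

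Values were compared with limma 3.58.1 (R 4.3.3) on log2(value + 1), letting the prior variance follow a trend, for the 14171 genes with a mean of at least 10, and p-values were adjusted by Benjamini-Hochberg over all of them at a threshold of 0.05. Fold changes on this scale understate the change of low genes. Gene-pair log2 ratios within libraries were compared by exact two-sided permutation tests over 56 splits, with adjustment over 12 ratios. The fit was tested on simulated data with 200 changed genes. It recovered 18% of 1.5-fold, 34% of 2-fold, 88% of 4-fold and 88% of 8-fold changes, with 6 false calls. It changed far fewer genes than the 62.3% of tested genes called in these data, so its recovery rates may not carry over. A gene that did not pass may still differ, and no upper limit follows from the simulation. Clec4f, for example, averaged 2.40-fold lower in the TAZ-CCl4 libraries and did not pass. The members, source groups and lists were chosen with earlier results of these data known. All 31 members are named, with every library's value for C3, the C1q genes and at least the 2 called members of each role with the largest change. Of the other complement genes the 3 largest called rises and falls with a higher group mean of at least 50 are named. Alternatives were 4 other scalings, pseudocounts of 0.1 and 10, no filter or a mean of at least 50, no trend, a replicate block and each library left out. Gene positions and lengths are from GENCODE (mm10) and promoters from RefSeq (GRCm38.p6), which matched 24 of the 31 members.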

Additional observations from a re-analysis of the deposited data

Results flagged for a closer look

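Among 48 groups of 5 TAZ-CCl4 libraries (1 per gene or ratio named), 5 had a library standing apart from the other 4, with a gap to its nearest neighbour above 0.71 of the whole range. Chance gives about 1 in 20. C4b was highest at 25993 normalised counts in TAZ-CCl4 replicate 2, still below the lowest control at 30411. C7 was highest at 245 normalised counts in the same library. C5ar1 was highest at 327 normalised counts in TAZ-CCl4 replicate 1, and so was Itgam at 931. The log2 ratio of C1qb to C3 was lowest at -6.14 in TAZ-CCl4 replicate 2, yet above each control.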

How the results depend on the processing

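Pseudocount, filter and trend changed no call among the members each could test (Cfd is not tested at a mean of at least 50, nor without control replicate 1), whereas the scaling did. At equal totals 10808 of all tested genes were higher and 903 lower (median log2 fold change 1.26), 18 and 9 complement genes (median 0.72), 10 and 8 hepatocyte-made genes (median 0.26), 0 macrophage-made genes lower (median 4.24), and 11 and 3 other complement genes (median 0.84). At equal totals without major urinary protein and mitochondrial genes these were 8912 and 1513 (median 0.85), 14 and 10 (median 0.30), 7 hepatocyte-made genes higher (median -0.16), 0 macrophage-made genes lower (median 3.82) and 6 other genes lower (median 0.42). After quantile normalisation they were 13 and 10 complement genes (median 0.49) and 8 and 7 hepatocyte-made genes (median 0.36). The median over all genes was 0.22 at equal upper quartiles, -0.046 after quantile normalisation, 0.10 with no filter and -0.049 with a mean of at least 50.

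Values that turned direction, in the order equal totals, equal totals without those genes and quantile normalisation, were 0.53, 0.11 and 0.23 for C1ra, 0.72, 0.30 and 0.66 for C1s1, 1.04, 0.62 and 0.49 for Masp1, 0.96, 0.54 and 0.93 for Cfi, and 0.97, 0.55 and 1.58 for Vtn. C4b turned to 0.13 and Cfb to 0.38 at equal totals, and to 0.54 and 0.72 after quantile normalisation. Cd59a turned to 0.74 and 0.32 at the equal totals with and without those genes. With a pseudocount of 10 the difference between groups turned to -0.0704 for C3ar1 to Csf1r, log2 ratio difference, and to -0.57 for C5ar1 to Csf1r, log2 ratio difference. The cause was not tested. With single libraries left out, the hepatocyte-made genes called higher ranged from 1 (without control replicate 2 or 3) to 3 (without TAZ-CCl4 replicate 4), the macrophage-made genes called lower from 0 to 1, and C4bp from -0.0091 (without TAZ-CCl4 replicate 3) to 0.50.

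With the replicate number as a block 3801 genes were higher and 3479 lower, C1s1 and Cd59a lost their calls, and the median of the other complement genes was -0.73. Same-numbered libraries did not deviate together (correlations -0.07, -0.06 and -0.09), and 0 of 6 libraries correlated best with their own number, so the number does not pair them. No count test was run, since the values are not raw counts. With 3 controls, leaving 1 out gives too few splits for the ratio test to pass.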

Other observations

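Complement genes that are neighbours on a chromosome did not always move together. C6 and C7, which lie 174 kb apart on chromosome 15, had log2 fold changes of -5.89 and 2.94. Cd55 and C4bp, 172 kb apart on chromosome 1, had -1.57 and 0.18, the second not past the threshold. C8g and Fcna, 123 kb apart on chromosome 2, had -3.58 and -1.76. C8a and C8b, 11.1 kb apart on chromosome 4 and on opposite strands, had -3.90 and -3.98. These are descriptions of 4 pairs, with no test.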
